A study of Saccharomyces cerevisiae with 14 samples.

Results

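Sef1 is a zinc cluster transcription factor of Saccharomyces cerevisiae, and its binding was examined here at 8 genes that encode regulators of carbon source use: MIG1, MIG2, MIG3, TYE7, CAT8, SIP4, ADR1 and IME1. A peak was given to a gene if it lay at most 2000 bp before or 200 bp after its ATG. Over 7 peak lists, 38 of 3812 peaks met this rule, and they fell at 7 sites upstream of 4 genes, called member sites here. Peaks of different lists whose intervals overlapped were merged into a site. Of the 7 sites, 6 were called by 3 or more lists of the same medium, as were 645 of the 1066 sites of the genome.

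All 14 samples came from strain W303ScSef1TAPNB1-1, a MATa W303 derivative in which the native SEF1 gene carries a TAP tag (SEF1-TAP::FRT), with the marker alleles ade2-1, can1-100, trp1-1 and ura3-1, and the double alleles his3-11 with his3-15 and leu2-3 with leu2-112. Cells of an overnight YPD culture were moved to YPGly, in which glycerol is the carbon source and cells respire, or to YPD, in which glucose is fermented, and were fixed after 4.5 h at 30°C in log phase, at 0.4 OD/ml in YPGly and 1 OD/ml in YPD. Sef1-TAP was precipitated from 3 YPGly and 4 YPD cultures, each ChIP library being matched to an input library in the labels, and no untagged strain is among the samples. The partner libraries of YPGly repeats 2 and 3 carry ChIP in their titles, and they were taken as inputs from their descriptions, which name them as partners of a ChIP library. The cells used per sample were 500 OD in YPGly and 1500 OD in YPD, and YPD chromatin was precipitated in portions that were pooled afterwards. The effect of these differences cannot be told apart from that of the medium. YPGly repeat 3 was sequenced apart from the rest with paired reads. The lists hold 520, 373 and 395 peaks for YPGly repeats 1 to 3 and 528, 771, 615 and 610 peaks for YPD repeats 1 to 4. They do not hold read numbers, so the depth behind a peak is unknown.

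In yeast, glucose represses the genes for other carbon sources. The zinc finger repressors Mig1, Mig2 and Mig3 hold such genes off in glucose, and the Snf1 kinase lifts the repression by Mig1 when glucose is used up. Cat8, Sip4 and Adr1 then activate genes for gluconeogenesis, ethanol and fatty acid use. Tye7 is a basic helix-loop-helix activator of glycolytic genes, and Ime1 is the activator that starts meiosis, whose gene is kept silent by glucose and nitrogen.

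The DNA under the sites of MIG2, TYE7 and ADR1 is shown, since zinc cluster proteins such as Sef1 recognize CGG triplets and the sites differ in how many they hold. Each sequence is the 250 bp around the center of the site in the R64 reference of strain S288C, in the direction of the gene, and capitals mark CGG and its complement CCG. The positions are chrVII:94968-95217 and chrVII:95378-95627 on the plus strand for MIG2, chrXV:978817-979066 on the minus strand for TYE7 and chrIV:893953-894202 on the plus strand for ADR1.
MIG2 -765: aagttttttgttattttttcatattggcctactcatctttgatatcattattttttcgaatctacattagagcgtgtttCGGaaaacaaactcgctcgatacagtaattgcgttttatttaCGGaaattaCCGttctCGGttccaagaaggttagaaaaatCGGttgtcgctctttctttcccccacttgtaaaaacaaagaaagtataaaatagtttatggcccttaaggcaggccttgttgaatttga
MIG2 -355: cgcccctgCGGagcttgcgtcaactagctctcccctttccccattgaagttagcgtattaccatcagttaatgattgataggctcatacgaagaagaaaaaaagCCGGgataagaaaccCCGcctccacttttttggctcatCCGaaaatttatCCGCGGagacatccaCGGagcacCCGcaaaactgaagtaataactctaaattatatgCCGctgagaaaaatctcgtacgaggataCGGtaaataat
TYE7 -873: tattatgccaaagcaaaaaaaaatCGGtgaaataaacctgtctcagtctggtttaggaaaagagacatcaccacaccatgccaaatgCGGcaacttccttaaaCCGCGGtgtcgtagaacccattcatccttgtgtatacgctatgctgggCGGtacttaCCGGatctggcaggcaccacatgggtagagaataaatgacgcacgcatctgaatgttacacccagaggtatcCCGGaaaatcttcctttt
ADR1 -957: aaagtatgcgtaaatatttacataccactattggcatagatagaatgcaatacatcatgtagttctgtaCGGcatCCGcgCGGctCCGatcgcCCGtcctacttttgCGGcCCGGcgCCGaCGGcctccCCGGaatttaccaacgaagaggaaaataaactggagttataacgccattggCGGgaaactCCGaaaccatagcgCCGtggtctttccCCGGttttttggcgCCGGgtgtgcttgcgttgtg

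The ADR1 window was the richest of these in triplets. It held 19 CGG or CCG triplets, against a median of 6 over the 645 windows, of which 0.31% held more. The MIG2 -355 window held 11, the TYE7 window 9 and the MIG2 -765 window 5. The pair of triplets studied for Sef1, CCGN5CGG, which is its own reverse complement, was found in none of the 7 windows and in 9.46% of the 645. With 1 mismatch allowed it was found in 3 of the 6 windows with enough calls, those of both MIG2 sites and ADR1, and in 50.4% of the 645. A direct repeat of the triplet, CGGN7CGG on either strand, was searched after the sequences had been seen. It was found in the windows of ADR1 and TYE7 and in 13.6% of the 645. The TYE7 match reads CGGtacttacCGG (chrXV:978903-978915, 33 bp from the center) and the ADR1 match reads CGGagccgcgCGG on the strand opposite to the one printed (chrIV:894028-894040, 44 bp from the center). The carbon source responsive element of Cat8 and Sip4 was in none of the 7 windows and in 1.71% of the 645. These matches describe the letters of the reference and are not binding sites by themselves.

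Peaks were found at 4 of the 8 genes (50%), MIG2, TYE7, ADR1 and IME1, whereas 14.6% of the 6008 protein-coding genes had a site with 3 calls in a window of the same size. The 8 genes were chosen with earlier results of these data known, so the shares are descriptive and an excess was not tested. MIG1, MIG3, CAT8 and SIP4 had no peak in any list, and so no Sef1 enrichment was detected there at these thresholds. The peak nearest to the ATG of MIG1 lay 5025 bp upstream and was called in YPD repeat 2 alone. For CAT8 it lay 6611 bp upstream, also in YPD repeat 2 alone. For MIG3 it lay 4508 bp downstream, at a site called in 0 YPGly and 4 YPD lists, and for SIP4 it lay 25322 bp downstream. Each YPGly list held peaks at all 4 genes, with 7, 6 and 6 peaks in repeats 1 to 3. The YPD lists held 4, 7, 4 and 4 peaks in repeats 1 to 4. YPD repeats 1 and 2 had peaks at 4 of the genes, and YPD repeats 3 and 4 at 3 of them, with none at MIG2.

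**Figure D1:**
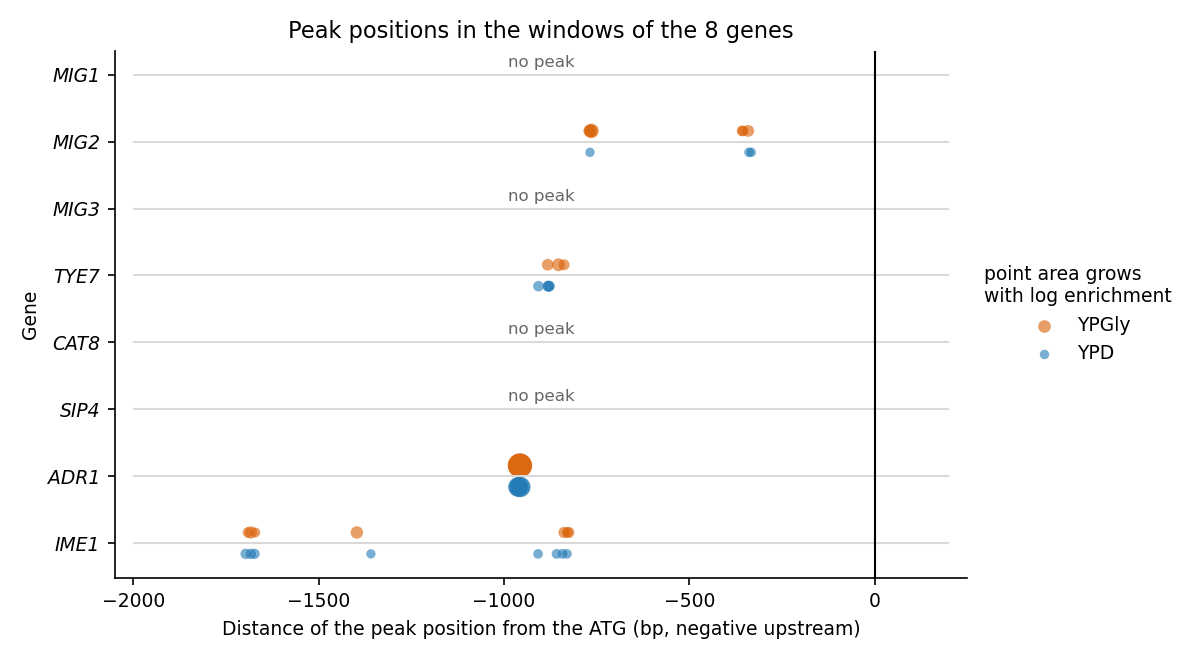
Position of every peak relative to the ATG (x axis, bp) in the windows of the 8 genes (rows), with YPGly lists above each line and YPD lists below it. Point area grows with the logarithm of enrichment. The peaks of ADR1 from all 7 lists coincide near -957 bp, and 4 genes have no peak.

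MIG2 (YGL209W), a repressor of glucose-repressed genes that acts beside Mig1, had a pair of weak peaks, both of which were called in every YPGly list and in few YPD lists. The site at -765 bp (chrVII:94964-95223) had enrichments over input of 3.81, 2.29 and 2.61 in YPGly repeats 1 to 3, against 1.28 in YPD repeat 2 and no peak in YPD repeats 1, 3 and 4. All YPGly values lay above the one YPD value. The YPGly mean was 2.90 ± 0.798 (SD, n = 3). The peak ranked 152nd of 520, 173rd of 373 and 169th of 395 in the YPGly lists, and 621st of 771 in YPD repeat 2. Peak positions of the 4 lists ran from 95089 to 95094. Calls in 3 of 3 YPGly and 1 of 4 YPD lists gave a two-sided p of 0.143 in Fisher's exact test. It was 0.401 after Benjamini-Hochberg adjustment over 1066 sites. The smallest p that 3 and 4 lists allow in this test, 0.0286, came to 0.152 after adjustment. The test therefore cannot decide whether the calls differ between the media. The site was also kept through its YPGly calls alone.

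The second MIG2 site, at -355 bp (chrVII:95374-95633), was weaker in each YPGly list. Its enrichments were 2.02, 1.55 and 1.58 in YPGly repeats 1 to 3, against 1.31 and 1.30 in YPD repeats 1 and 2, with no peak in YPD repeats 3 and 4. The YPGly mean was 1.72 ± 0.265 (SD, n = 3) and all YPGly values lay above the 2 YPD values. It ranked 319th, 286th and 307th in the YPGly lists, and 498th and 590th in the YPD lists that held it. The lists differ in length. The share of the list above this peak was 61.2, 76.4 and 77.5% in YPGly repeats 1 to 3. In YPD repeats 1 and 2 it was 94.1 and 76.4%, so by this share the groups overlapped. YPD repeat 2 was the one YPD list in which both MIG2 sites were called, and there they differed by little, with 1.28 at -765 bp and 1.30 at -355 bp. The calls, 3 of 3 in YPGly and 2 of 4 in YPD, gave p = 0.429 in Fisher's exact test and 0.802 after adjustment, with the same limit. This site also fell in the window of SIP2, a subunit of the Snf1 kinase whose gene follows MIG2, at -1835 bp.

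Both MIG2 sites had 3 calls in YPGly and fewer in YPD, and they were the only ones among the 6 member sites. Of all 645 sites, 16.7% were of this kind. The opposite kind, with 3 calls in YPD and fewer in YPGly, took 48.4% of the 645 sites and 0 of the 6 member sites. The kinds are not symmetric, since 3 calls took every YPGly list but only 3 of the 4 YPD lists, which were also longer. The count of 2 rested on the settings, being 4 when every list was reduced to as many peaks as the shortest and 1 when 2 calls were required.

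**Figure D2:**
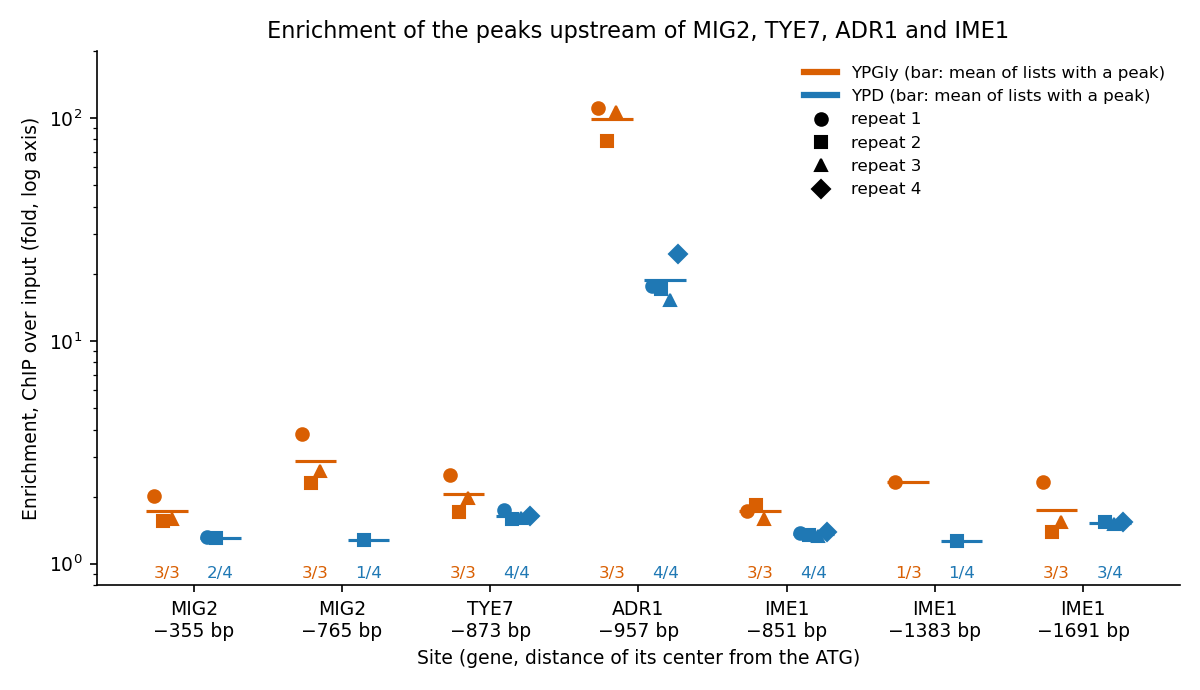
Enrichment of ChIP over input (y axis, fold, log axis) at the 7 sites for each list with a peak, YPGly in orange and YPD in blue. Bars give the mean of the lists with a peak and the fractions count them. ADR1 stands near 98.6 in YPGly and 18.6 in YPD, and every other value lies below 4.

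TYE7 (YOR344C), which encodes the activator of glycolytic genes, had 1 site at -873 bp (chrXV:978803-979081) that was called in all 7 lists. It lies between TYE7 and the tRNA gene YNCO0031W, 1741 bp from the center. Enrichments were 2.50, 1.71 and 1.97 in YPGly and 1.75, 1.58, 1.60 and 1.64 in YPD, and the lowest YPGly value lay below the highest YPD value. The means were 2.06 ± 0.405 (SD, n = 3) in YPGly and 1.64 ± 0.0744 (SD, n = 4) in YPD. In its lists the peak ranked 234th, 248th and 232nd in YPGly and 381st, 303rd, 401st and 388th in YPD.

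The lists share no common scale of enrichment, and the median over the 203 sites called in all 7 lists was 0.70 higher in YPGly than in YPD on the log2 scale. Sites were therefore ranked within each list among these 203. TYE7 ranked 142nd, 158th and 149th in YPGly and 164th, 162nd, 160th and 172nd in YPD, a mean difference of -14.8 with no overlap. The exact permutation test gave p = 0.0286, the smallest that 7 lists allow, and 0.0523 after adjustment over 203 sites. At the unadjusted p under 0.05, 54.7% of the shared sites differed in either direction and 25.6% lay nearer the top in YPGly, and after adjustment 0% passed. When log2 enrichments were centered on the median of the shared sites instead, the direction turned, and TYE7 was 0.39 lower in YPGly (difference -0.39, exact permutation test with Benjamini-Hochberg adjustment, adjusted p = 0.0395). On that scale 147 of the 203 shared sites passed after adjustment. With ranks taken as a percent of all sites in each list, which lets the length of the list enter, the difference was -3.77 percentage points (exact permutation test p = 0.657, adjusted p = 0.785). The result at TYE7 depended on the scale used.

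The shared sites whose enrichment over the 7 lists was most like that of TYE7 lay upstream of YAP6 (-650 bp), RPM2 (-1144 bp) with UFO1 (-360 bp), and BSC1 (-1177 bp). Their mean absolute log2 differences from TYE7 were 0.0439, 0.0517 and 0.0642. YAP6 encodes a basic leucine zipper factor, RPM2 the protein subunit of mitochondrial RNase P, and UFO1 an F-box protein.

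ADR1 (YDR216W), which encodes the zinc finger activator of ADH2 and of peroxisomal genes, carried the strongest site of the set. The site at -957 bp (chrIV:893949-894208) had enrichments of 111, 78.5 and 107 in YPGly repeats 1 to 3, against 17.6, 17.1, 15.3 and 24.6 in YPD repeats 1 to 4. The groups stood far apart, the lowest YPGly value being above 3 times the highest YPD value. The means were 98.6 ± 17.6 (SD, n = 3) in YPGly and 18.6 ± 4.09 (SD, n = 4) in YPD, a ratio of 5.29. That ratio includes the higher median of the shared sites in YPGly given above. The lower bounds that the peak caller gave were 104, 73.0 and 99.1 in YPGly and 16.5, 15.9, 14.2 and 22.7 in YPD. They cover the error of the estimate within a library and not the spread between cultures.

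In its list the ADR1 peak ranked 9th, 9th and 8th in YPGly and 14th, 13th, 14th and 19th in YPD. Against the highest enrichment of the same list, a measure chosen after the values had been seen, it reached 40.3, 34.3 and 41.4% in YPGly and 4.43, 8.29, 5.24 and 6.50% in YPD. The highest site was not the same in all lists, so these percentages also carry changes at that site. Among the 203 shared sites it ranked 9th, 9th and 8th in YPGly and 14th, 13th, 14th and 13th in YPD, a mean difference of -4.83 (exact permutation test p = 0.0286, adjusted p = 0.0523). The centered log2 enrichment was higher by 1.71 in YPGly, with list values of 4.54, 4.56 and 4.81 in YPGly and 2.76, 2.97, 2.77 and 3.22 in YPD (exact permutation test, adjusted p = 0.0395, as for 147 of the 203 sites). As a percent of all sites in each list, the rank of ADR1 differed by -0.36 percentage points (exact permutation test p = 0.429, adjusted p = 0.584). Of the 3 member sites called in every list, that of ADR1 was the one whose ranks among shared sites and centered enrichments pointed the same way.

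Peak positions at ADR1 ran from 894073 to 894079 over the 7 lists. The center, 894078, lies in the gap between AHA1, which ends 151 bp to its left, and the open reading frame YDR215C (894089-894502, minus strand), which ends 11 bp to its right. Both genes read toward the site, and the merged interval reaches into the 3′ end of YDR215C. ADR1 was the only protein-coding gene whose window held it. The nearest tRNA gene was 9585 bp away.

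**Figure D3:**
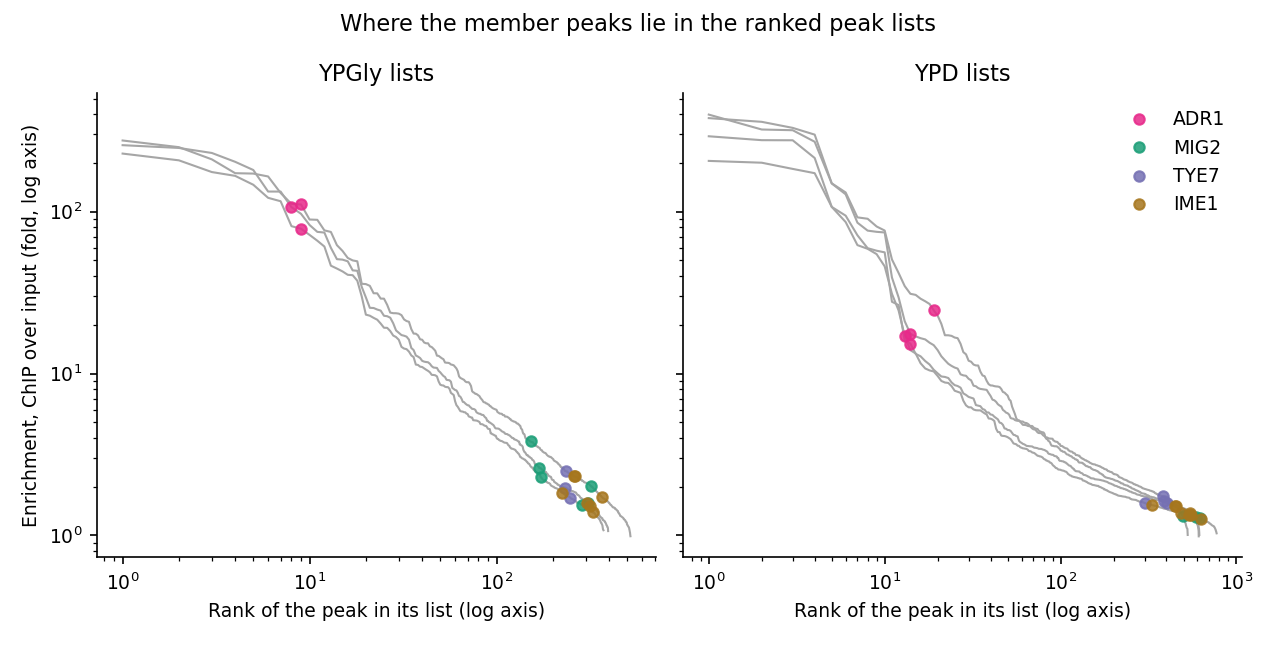
Enrichment (y axis, fold, log axis) against rank in the list (x axis, log axis) for all peaks of the 3 YPGly lists, left, and the 4 YPD lists, right, as grey lines with the member peaks as points. ADR1 sits between ranks 8 and 9 in YPGly and 13 and 19 in YPD, and the other members start at rank 152 in YPGly and 303 in YPD.

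The shared sites most like that of ADR1 differed from it by more than those most like TYE7 did from TYE7. The closest was upstream of YGR067C (-542 bp), which encodes a protein with a zinc finger like that of Adr1, with enrichments of 172, 147 and 203 in YPGly and 15.0, 11.6, 12.8 and 17.2 in YPD. Its mean absolute log2 difference from ADR1 over the 7 lists was 0.576. UPS2 (-210 bp) with TAG1 (-1941 bp) followed at 0.765, and SPS4 (-1250 bp) with SFG1 (-636 bp) at 0.830.

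IME1 (YJR094C) had 3 sites, all weak. In yeast the noncoding RNA IRT1 is transcribed through the IME1 promoter and represses it, and all 3 site centers fell inside the annotated IRT1 (chrX:605936-607424, minus strand, as IME1). They also fell in the window of RPL43B, a ribosomal protein gene on the other side. The site at -851 bp (chrX:606351-606654) was called in all 7 lists, with enrichments of 1.73, 1.83 and 1.59 in YPGly and 1.38, 1.34, 1.33 and 1.39 in YPD. The groups did not overlap, and the means were 1.72 ± 0.118 (SD, n = 3) in YPGly and 1.36 ± 0.0266 (SD, n = 4) in YPD. The peak ranked 366th, 225th and 304th in the YPGly lists and 486th, 539th, 551st and 543rd in the YPD lists.

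Among the shared sites, the IME1 site at -851 bp ranked 184th, 145th and 181st in YPGly and 188th, 194th, 187th and 195th in YPD, a mean difference of -21.0 (exact permutation test p = 0.0286, adjusted p = 0.0523). YPGly repeat 2 stood apart with rank 145, and the other YPGly ranks lay 3 to 14 places from the YPD ranks. The centered log2 enrichment pointed the other way (difference -0.36, exact permutation test p = 0.114, adjusted p = 0.133). The rank as a percent of all sites in each list differed by -16.4 percentage points (exact permutation test p = 0.0857, adjusted p = 0.158). Sites with the most similar enrichments lay upstream of DIP5 (-498 bp, mean absolute log2 difference 0.126), an amino acid permease, of CIT2 (-322 bp, 0.134), the peroxisomal citrate synthase, and of ZRG8 (-385 bp), YER034W (-174 bp) and EDC2 (-967 bp, 0.139).

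The IME1 site at -1691 bp (chrX:607213-607472) had enrichments of 2.31, 1.39 and 1.53 in YPGly, against 1.54, 1.51 and 1.53 in YPD repeats 2 to 4 and no peak in YPD repeat 1. The YPD values lay within the YPGly range, and the means were 1.75 ± 0.497 (SD, n = 3) in YPGly and 1.53 ± 0.0115 (SD, n = 3) in YPD. The ranks were 263rd, 328th and 316th in YPGly and 333rd, 448th and 453rd in YPD. Because the YPD lists that held it are longer, the raw ranks mislead. The share of the list above the peak was 50.4, 87.7 and 79.7% in YPGly and 43.1, 72.7 and 74.1% in YPD, with overlap. At -1383 bp a peak was called only in YPGly repeat 1, with an enrichment of 2.32 and rank 258, and in YPD repeat 2, with an enrichment of 1.26 and rank 632. This site had too few calls to be counted.

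**Figure D4:**
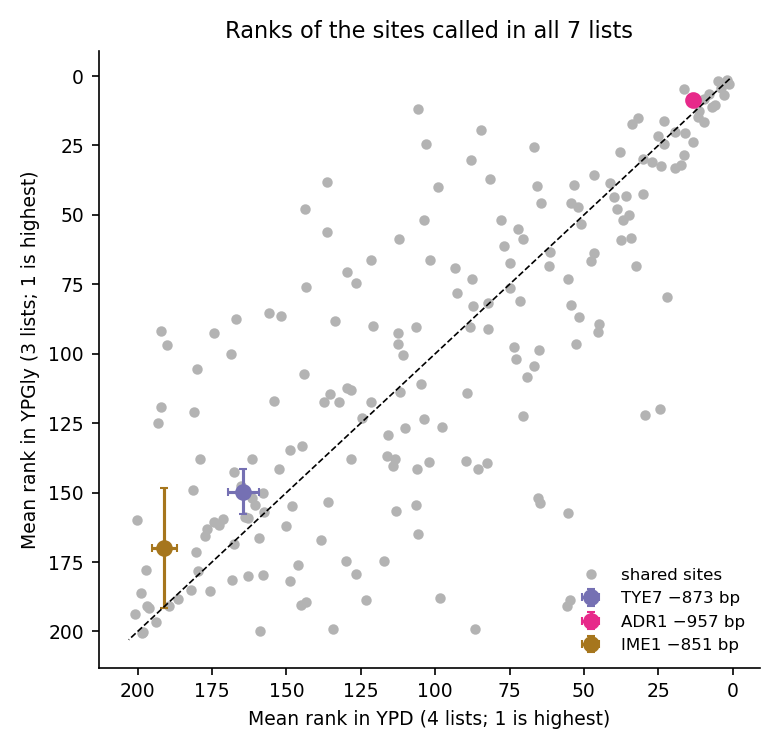
Mean rank of each of the 203 shared sites in YPGly (y axis) against YPD (x axis), rank 1 at the top right. Colored points are the 3 member sites with SD bars, and the dashed line marks equal ranks. All 3 lie above the line, nearer the top in YPGly.

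The site order by mean enrichment in YPGly was ADR1 at 98.6, MIG2 -765 at 2.90, TYE7 at 2.06, IME1 -1691 at 1.75, and IME1 -851 and MIG2 -355 at 1.72 each. Apart from ADR1, neighbors in this order did not differ by more than the larger SD of the pair, except that MIG2 -765 exceeded TYE7 by a little more. Every one of the 38 member peaks had an enrichment whose lower bound was above 1, the lowest being 1.13.

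A wider list of 37 genes of glucose signaling, carbon source control and meiotic entry was examined in the same way. It too was chosen with earlier results of these data known, so its shares are descriptive and an excess was not tested. A site with 3 calls was found at 12 of them (32.4%, against 14.6% of all genes), with 14 sites in all, 1 of which is the MIG2 site in the SIP2 window. Of the 14, 8 had 3 calls in YPGly only, 4 in YPD only and 2 in both, beside 16.7% in YPGly only and 48.4% in YPD only among the 645 sites. Calls in all 3 YPGly and 0 YPD lists, a pattern of 9.15% of the 645 sites, were seen at MTH1, which encodes a corepressor of glucose transporter genes, at REG2, a subunit that directs the Glc7 phosphatase, and at USV1, a zinc finger factor. MTH1 had enrichments of 3.50, 2.78 and 2.68 at -553 bp and of 2.29, 1.76 and 2.00 at -1541 bp. REG2 had 3.48, 2.98 and 3.14 at -350 bp, at a site shared with the window of REB1, and USV1 had 3.60, 2.38 and 2.47 at -652 bp. For this pattern of calls Fisher's exact test always gives p = 0.0286, the smallest that 3 and 4 lists allow, here 0.152 after adjustment. These sites were named for the pattern, so the p restates it and adds no support. Over the 1066 sites 0 passed after adjustment, against 201 at unadjusted p under 0.05. Of the 1066, 281 were called in 1 list and could not reach that p, so the 0 is no evidence that calls were alike.

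TOS3, which encodes a kinase that activates Snf1, had 7.08, 4.75 and 4.15 in YPGly and 1.87 in YPD repeat 2 alone, at -1225 bp, in a site that also lay in the window of MPT5. CYC8, the corepressor recruited by Mig1, and IME2, the meiotic kinase gene activated by Ime1, had sites near the floor of the lists. CYC8 averaged 1.55 ± 0.328 (SD, n = 3) in YPGly and 1.24 ± 0.116 (SD, n = 2) in YPD. IME2 averaged 1.43 ± 0.228 (SD, n = 3) in YPGly and had 1.10 in YPD repeat 2 alone.

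The 4 sites with 3 calls in YPD only were at GLC7, MSN2, NRG1 and RDS2. NRG1, a repressor that shares targets with the Mig proteins, had 3.36 and 2.46 in YPGly repeats 1 and 2 and no peak in YPGly repeat 3. In YPD it had 1.57, 1.43, 1.75 and 1.66. These raw values are not on a common scale, the median of the shared sites being 0.70 higher in YPGly on the log2 scale. MSN2, a stress activator, had 2.97 and 2.61 in YPGly repeats 1 and 3 and a YPD mean of 1.47 ± 0.0740 (SD, n = 4). GLC7 had 1.49 in YPGly repeat 1 and a YPD mean of 1.94 ± 0.391 (SD, n = 4). RDS2, a zinc cluster activator of gluconeogenic genes, had no YPGly peak and a YPD mean of 1.59 ± 0.146 (SD, n = 4). HAP4, the regulated subunit of the respiratory HAP activator, was the only gene of the wider list with a site stronger than that of ADR1, at 243 ± 34.0 in YPGly (SD, n = 3) and 128 ± 24.5 in YPD (SD, n = 4), at -943 bp. Its second site, at -1708 bp, averaged 7.75 ± 2.07 in YPGly (SD, n = 3) and 6.27 ± 0.740 in YPD (SD, n = 4). The other 25 genes had no site with 3 calls.

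**Figure D5:**
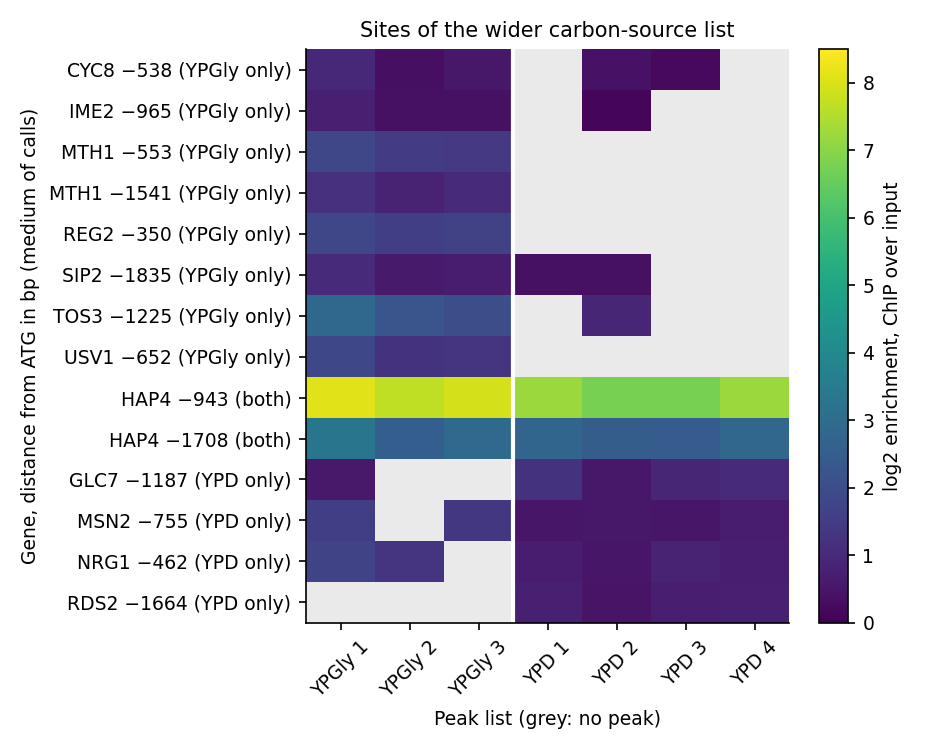
log2 enrichment (color) in each of the 7 lists (columns, YPGly left of YPD) at the 14 sites of the wider list (rows, with distance from the ATG in bp and the medium that had 3 calls). Grey cells have no peak. MTH1, REG2 and USV1 are filled in YPGly columns alone, and HAP4 -943 exceeds all other rows.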

How the data were processed

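The authors called Sef1-TAP ChIP-seq peaks per library against the matching input, without pooling, after trimming (Trimmomatic 0.36) and mapping (Bowtie2 2.3.3, per the submitters' processing notes) to the S288C genome R64. The peak caller is not given in the sources used here. The deposited lists give a score, an FDR (a q-value, in the interval lists also as -log10) and the enrichment, the authors' fold ratio of ChIP over input, with a lower bound. These values were used unchanged. All listed FDR values are under 0.05, so weaker enrichment is not in the lists.

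Intervals overlapping by at least 1 bp were merged, and sites called by 3 or more lists of the same medium were kept. Genes were taken from the R64-5-1 annotation. Ranks were compared by two-sided exact permutation tests over the 35 ways of dividing 7 lists into 3 and 4, calls by two-sided Fisher's exact tests, both with Benjamini-Hochberg adjustment (threshold 0.05). The SD is between repeats. The genes named are the 8 members, genes sharing a member peak, those of a wider list of 37 with a kept site, and the 3 shared sites most like each member site. The members and lists were chosen with earlier results of these data known. Alternatives covered merging, calls required, an enrichment of at least 2, list length, score ranks, lower bounds, window sizes, motif mismatches, a replicate block and each repeat left out. Scripts were tested on simulated data. Software was scipy 1.17.1, pandas 2.3.3 and numpy 2.4.6 under Python 3.11.15, with matplotlib 3.10.9 for plots.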

Additional observations from a re-analysis of the deposited data

How the results depend on the processing

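Of 127 alternative values, 114 were counted as unchanged. This meant the same direction for rank differences and within 1.5 times for counts. For differences in calls it meant only that no adjusted p fell under 0.05, whatever the size of the change. The call difference of IME1 -851, for example, went from 0 to 100 percentage points when each list was reduced to as many peaks as the shortest. With an enrichment of at least 2 in every peak, 2 member sites at 2 genes were left, 1 of them in YPGly only. A window of 500 bp upstream left 1 site at 1 gene, in YPGly only. With 2 calls required, the YPGly-only count was 1, and with each list reduced to as many peaks as the shortest it was 4. CCGN5CGG with 1 mismatch was found at 3 sites. Centering log2 enrichments on the median of the shared sites gave a difference of 1.71 for ADR1, -0.39 for TYE7 and -0.36 for IME1, turning the last 2, and called 147 sites, against 0 by rank. The median of the shared sites differed by 0.70 between media on the log2 scale, which centering removes. Leaving out each repeat in turn, member sites stayed at 6 to 6, genes with a site at 4 to 4, CCGN5CGG at 0 to 0 and YPGly-only sites at 2 to 3. Called sites were 0 to 0, which was fixed beforehand, since 6 lists allow no exact p below 0.0667 or 0.1. The rank differences ranged over -5.0 to -4.50 (ADR1), -22.2 to -12.3 (TYE7) and -30.5 to -12.5 (IME1), and without YPGly repeat 2 the last was the smallest in size. Ranks as a percent of all sites in each list gave differences of -0.36 (ADR1), -3.77 (TYE7) and -16.4 (IME1), with unadjusted exact p of 0.429, 0.657 and 0.0857. With the repeat number as a block (3 pairs, smallest exact p 0.25), the differences were -5.0, -12.3 and -19.7 with 0 sites called. Same-numbered lists did not deviate together (r = -0.299, -0.365 and 0.0379). These correlations were not tested, and whether the numbers pair the lists is unknown. Without read numbers, weak sites near an enrichment of 1 cannot be given a counting error.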
